A study of Rattus norvegicus with 18 samples.

Results

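The genes described here carry glucose and lactate across the cell membrane, break glucose down by glycolysis, set the fate of pyruvate, store glucose as glycogen, or feed it into the pentose phosphate pathway. They were taken from a list of 39 rat genes, and a gene was counted as measured when a probe set carried its symbol and no other. This held for 38 of the 39, among 14218 genes with such a probe set, and where a gene had several the one with the highest mean was used. The exception was Pkm, the muscle-type pyruvate kinase, whose probe set here shares its symbol with a pseudogene. Of the 38, the genes Slc2a4, Pfkfb1 and Pfkfb2 did not exceed the median signal of their own array on at least 3 of the 18 arrays and were not tested, which left 35 of 10392 genes tested.

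Glycolysis splits glucose into pyruvate, which lactate dehydrogenase turns into lactate or which enters the mitochondria through the pyruvate dehydrogenase complex. In the ovarian follicle the granulosa layer has no blood vessels of its own until ovulation, and its cells are known for making lactate from glucose, part of which the oocyte and cumulus cells use. After the surge of luteinizing hormone the follicle wall takes up more glucose, ruptures, and is rebuilt as the corpus luteum. Indomethacin blocks the cyclooxygenases that make prostaglandins, and RU486 blocks the progesterone receptor and the glucocorticoid receptor, and both are known to hinder rupture of the follicle.

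The samples were ovarian follicles of Crl:CD(SD) rats, cut out of frozen ovary sections with a laser, and each of the 18 samples was hybridized to its own Affymetrix array. RU UF were unruptured follicles taken at 10:00 on the day of estrus after 1 oral dose of 100 mg/kg RU486 at 10:00 on the day of proestrus. IM UF were unruptured follicles of the same hour after 1 oral dose of 4 mg/kg indomethacin at 16:00 on proestrus, and control PoF were ruptured, post-ovulatory follicles of that hour from rats that received nothing. RU PeF, IM PeF and control PeF came from rats treated in the same 3 ways and killed at 22:00 on proestrus; the sample titles call these follicles peri-ovulatory, and the series description calls them pre-ovulatory. Each group had 3 samples, and 3 animals per group and hour are stated, not tied to samples by the labels, so p-values measure the spread between these samples. No vehicle-treated group is named, and at 10:00 the treated follicles were unruptured and the controls ruptured, so the drug and the absence of rupture cannot be told apart. The labels give 15 follicles per phase and sections of 8 µm; each array therefore measured a mixture of cells, in which fewer cells of a type and less RNA per cell cannot be told apart.

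Values below are signals after quantile normalization, and differences are between group means of log2(signal + 2.79), given with their standard error (SE). A gene was called higher or lower where limma's adjusted p was under 0.05. The medians of the deposited signals ran between 4.4 and 27.4 over the 18 arrays, and the array of the third control PeF sample, with the lowest, stood apart from the others. Without any scaling between arrays, the median gene differed by 1.38 (log2) between control PoF and control PeF and by -0.72 between RU UF and control PoF. Of 9 tested granulosa cell markers, 7 were above background on all 18 arrays, as were 4 of 5 theca markers, and none of the 3 tested oocyte markers or the 3 tested surface epithelium markers was. The log2 signal of the Gapdh probe set at the 3′ end of the transcript exceeded that at its 5′ end by 2.22 ± 0.132 in control PoF, against 3.66 ± 0.618 in control PeF (SD, n = 3 each). It did so by 3.07 ± 0.20 in RU UF and 2.88 ± 0.853 in IM UF, and by 2.78 ± 0.146 in RU PeF and 2.98 ± 0.547 in IM PeF (SD, n = 3 each).

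Many genes of glycolysis are textbook targets of hypoxia-inducible factor, whose binding site holds the letters ACGTG, and of factors such as Myc, which bind CACGTG. RefSeq promoters of build GRCr8, from 250 bases before to 50 after the transcript start that the promoter table uses, were given for 36 of the 39 listed genes. In 7 of the 36 that start lies over 1000 bases inside the outermost start of the gene, among them Slc16a1 (7104 bases) and Pfkfb3 (51613 bases). ACGTG, read on either strand (so that CACGT counts) and including copies within CACGTG, stood in 16 of these 36 promoters (44.4%), in 25.3% of the promoters of 9686 tested genes, and in 19.3% of all 33469 promoters. CACGTG stood in 4 of the 36 (11.1%), in 9.5% of those of tested genes and in 6.42% of all. The median share of G and C was 60.2% in the members' promoters and 61% in those of tested genes. Printed here, on the strand of the gene and with each match in capitals, are the 5 promoters that hold ACGTG among the 11 members lower in RU UF than in control PoF. They belong to Slc16a1 (chr2:194812410-194812709, plus strand), Pfkfb3 (chr17:71944683-71944982, plus strand), Eno2 (chr4:159267171-159267470, minus strand), Ldha (chr1:106507842-106508141, plus strand) and Gbe1 (chr11:22181026-22181325, plus strand).
Slc16a1: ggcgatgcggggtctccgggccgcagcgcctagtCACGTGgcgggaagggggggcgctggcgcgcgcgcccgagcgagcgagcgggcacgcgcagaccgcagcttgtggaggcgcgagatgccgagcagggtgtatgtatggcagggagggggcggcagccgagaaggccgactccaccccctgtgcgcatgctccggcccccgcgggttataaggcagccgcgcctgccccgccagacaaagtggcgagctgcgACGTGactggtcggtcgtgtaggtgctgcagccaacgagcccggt
Pfkfb3: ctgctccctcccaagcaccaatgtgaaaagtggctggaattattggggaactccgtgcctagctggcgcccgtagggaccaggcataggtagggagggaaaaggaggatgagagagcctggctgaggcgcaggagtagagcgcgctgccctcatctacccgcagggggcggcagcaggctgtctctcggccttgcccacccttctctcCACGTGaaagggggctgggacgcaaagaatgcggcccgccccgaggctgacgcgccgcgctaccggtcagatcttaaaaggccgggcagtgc
Eno2: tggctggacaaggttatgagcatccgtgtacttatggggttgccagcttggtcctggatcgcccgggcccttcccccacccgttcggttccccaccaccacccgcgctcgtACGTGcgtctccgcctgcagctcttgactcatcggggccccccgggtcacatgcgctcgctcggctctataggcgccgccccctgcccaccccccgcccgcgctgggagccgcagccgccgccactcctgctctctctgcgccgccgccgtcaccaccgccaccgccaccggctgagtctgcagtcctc
Ldha: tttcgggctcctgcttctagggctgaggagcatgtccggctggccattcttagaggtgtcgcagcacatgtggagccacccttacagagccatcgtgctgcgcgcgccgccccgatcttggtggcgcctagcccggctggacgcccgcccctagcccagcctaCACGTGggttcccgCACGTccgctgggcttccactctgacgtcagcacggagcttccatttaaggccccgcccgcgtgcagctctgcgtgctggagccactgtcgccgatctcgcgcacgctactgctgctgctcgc
Gbe1: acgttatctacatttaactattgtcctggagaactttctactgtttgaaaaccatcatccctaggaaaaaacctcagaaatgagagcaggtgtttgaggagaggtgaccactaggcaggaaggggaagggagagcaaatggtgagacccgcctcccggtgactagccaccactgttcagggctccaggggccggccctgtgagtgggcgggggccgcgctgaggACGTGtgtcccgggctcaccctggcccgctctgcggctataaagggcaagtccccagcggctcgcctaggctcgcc
The other members of these 11 with a promoter, Pfkp, Ldhb, Pdk4 and Pdha1, have a promoter without the letters, and Slc2a3 and Pgk1 were named only. Of the 27 members higher in control PoF than in control PeF, 26 had a promoter and 14 of these held ACGTG. A match is a description of the letters and says nothing of binding.

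Most of the pathway was higher in untreated follicles after ovulation. Of the 35 tested members, 27 were higher in control PoF than in control PeF and 2, Slc2a3 and Pfkfb4, were lower, where 24.4% of all genes were higher and 19.7% lower. The higher ones were all 6 glycogen members, the 5 measured members of the triose steps, the 3 of the pentose phosphate pathway, both monocarboxylate carriers, 8 of the 9 members of the hexose steps, Ldha, Pdk1 and Pdk2. Tpi1, which acts on the products of the split sugar, was grouped here with the hexose steps and not with the triose steps. Slc2a1, Hk2, Pfkfb3, Ldhb, Pdk4 and Pdha1 were not called. The median difference was 0.86 over the 35 members and 0.08 over all genes, and the 2 groups did not overlap in 26 members with control PoF above and in 2 with it below, against 28.4% and 24.5% of all genes. Without the third control PeF sample 23 members were higher and 2 lower, with medians of 0.81 and 0.01.

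Markers of several cell types also moved between these groups. Smooth muscle and pericyte markers summed to between 1033 and 1313 in control PoF, against 646 to 825 in control PeF, with 5 of 8 higher and 1 lower. Theca markers summed to between 3873 and 4186 in control PoF, against 8216 to 9059 in control PeF, with 4 of 5 lower. Of 9 granulosa markers 3 were higher and 4 lower, and of 3 surface epithelium markers Krt8 and Upk1b were higher, with sums of 218 to 316 in control PoF and 67.5 to 83.2 in control PeF. Endothelial markers (1 higher and 2 lower of 9), leukocyte markers (1 higher of 8), red cell markers (1 lower of 2) and oocyte markers (none called of 3) completed the lists. The part of these cell types, and of the Gapdh 3′ to 5′ difference, in the members' rise was not tested.

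**Figure D1:**
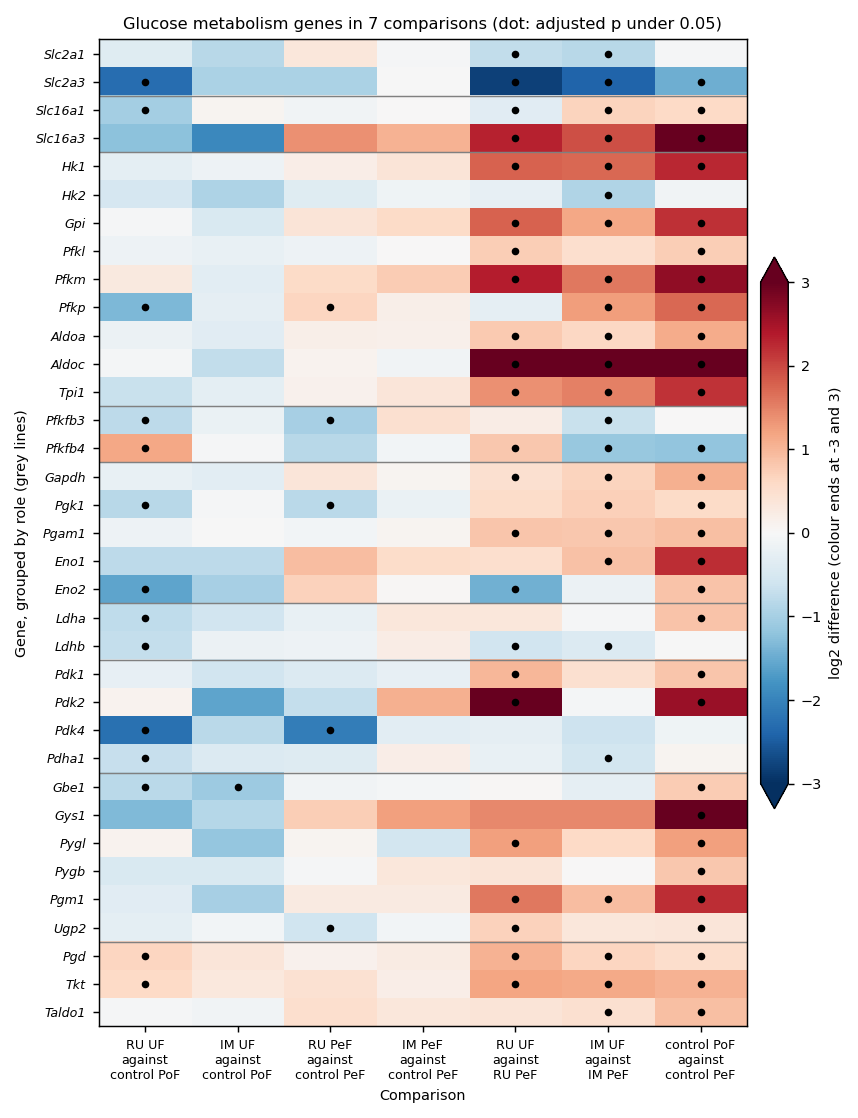
Log2 difference (colour, ending at -3 and 3) of the 35 tested members (rows, grouped by role) in 7 comparisons (columns), with a dot where limma's adjusted p was under 0.05. In control PoF against control PeF 27 members were higher and 2 lower, while only Gbe1 was called in IM UF against control PoF and none in IM PeF against control PeF.

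Members were also higher at the later hour in treated rats. In IM UF 17 members were higher and 7 lower than in IM PeF, where 19.4% of all genes were higher and 18.4% lower, and in RU UF 18 were higher and 5 lower than in RU PeF, where 21.3% and 21.4% were. With median scaling 15 members were higher and 3 lower in IM UF, and with the signals as deposited 1 and 1. Of all genes 1702 were higher and 1115 lower with median scaling, and 185 and 201 as deposited, against 2013 and 1915 after quantile normalization. For RU UF these settings gave 15 members higher and 4 lower, and 4 higher and 1 lower. Of all genes they gave 1609 higher and 1892 lower, and 294 and 299, against 2213 and 2225 after quantile normalization. The medians over the members were 0.59 in IM follicles and 0.68 in RU follicles, and 0.00 and -0.01 over all genes. Members whose groups did not overlap numbered 21 above and 8 below in IM UF (25.4% and 24.4% of all genes), and 23 above and 6 below in RU UF (30.1% and 30.9%). Cell type markers moved over time here too. Of 8 smooth muscle markers 5 were higher and 1 lower in RU UF than in RU PeF, and 6 higher in IM UF than in IM PeF; of 5 theca markers 1 was lower in RU UF and 4 in IM UF; of 9 granulosa markers 4 were higher and 4 lower in RU UF, and 3 higher and 2 lower in IM UF. Of the endothelial markers 2 were lower in RU UF, and 1 was higher and 1 lower in IM UF, and of the leukocyte markers 1 was higher and 1 lower in RU UF and 1 higher in IM UF. In both drugs' comparisons over time Krt8 and Upk1b of the surface epithelium were higher, Gdf9 of the oocyte was lower, and no red cell marker was called. Their part in the members' values was not tested. Whether each drug changed the size of the rise was tested as the difference of differences: with indomethacin no member was called (0% of all genes; 16 members and 9.14% of all genes had an unadjusted p under 0.05), and with RU486 1 was higher and 5 lower (2.28% and 2.16%).

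**Figure D2:**
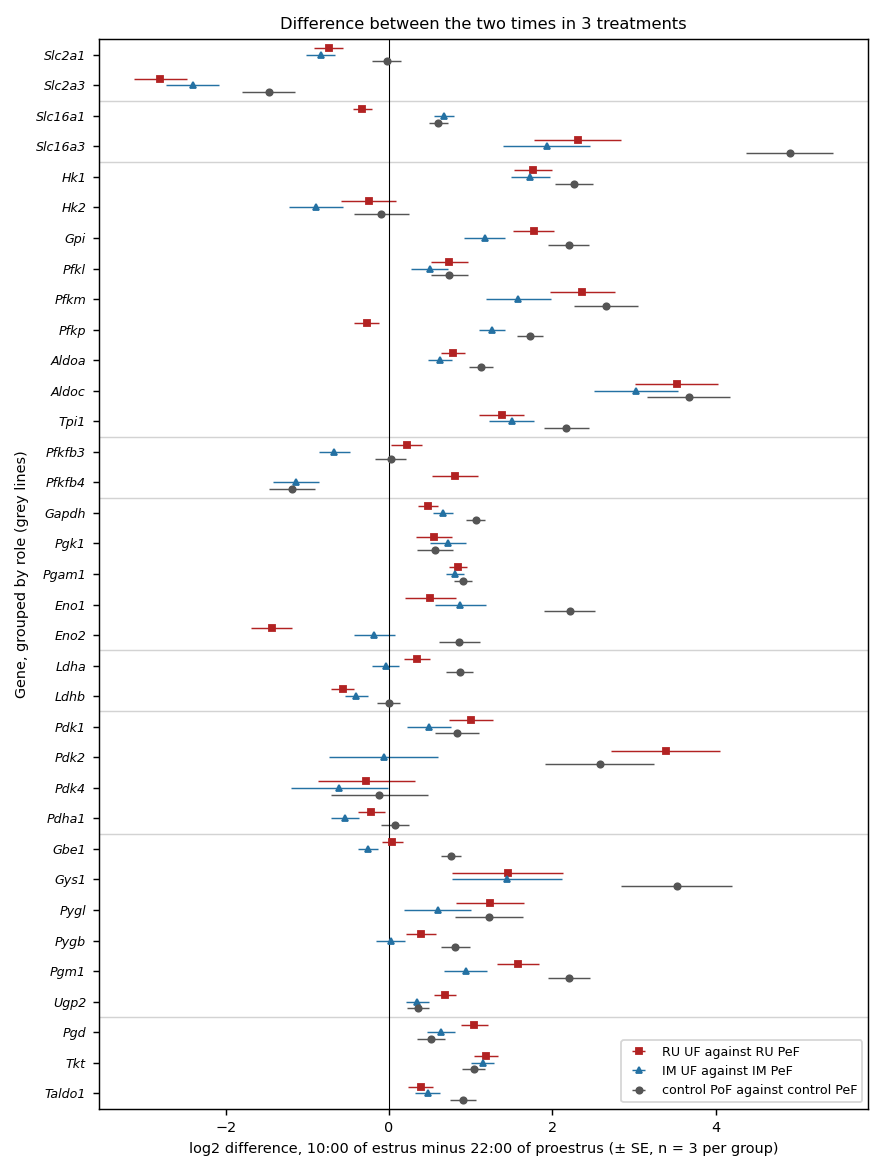
Log2 difference between 10:00 of estrus and 22:00 of proestrus for each tested member in RU486-treated (squares), indomethacin-treated (triangles) and control (circles) rats, with SE bars from limma and 3 samples per group. Most points of all 3 treatments lie to the right of 0, and in RU486-treated rats Slc16a1, Pfkp and Eno2 lie to the left of 0 and Pfkfb4 to the right.

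RU486 was followed by lower signals of a set of members spread over several steps. In RU UF 11 members were lower than in control PoF and 3 were higher, where 5.44% of all genes were lower and 4.52% higher. The lower ones were the glucose carrier Slc2a3, the lactate carrier Slc16a1, Pfkp, Pfkfb3, Pgk1, Eno2, Ldha, Ldhb, Pdk4, Pdha1 and Gbe1, and the higher ones Pfkfb4, Pgd and Tkt. The median difference was -0.37 over the members and -0.04 over all genes, and the groups did not overlap in 21 members with RU UF below and 4 with it above (21.1% and 17.3% of all genes). With median scaling 7 members were lower and none higher, where 347 of all genes were lower and 157 higher. After quantile normalization these counts of all genes were 565 and 470. With the signals as deposited 2 members were lower and none higher, where 81 of all genes were lower and 4 higher. Pgd and Tkt then differed by -0.09 and -0.13. Relative to the median gene, the median of the members was between -0.36 and -0.34 under the 3 scalings.

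Marker levels differed between these groups too. Theca markers summed to between 11540 and 13151 in RU UF, against 3873 to 4186 in control PoF, with Cyp17a1, Star and Aldh1a1 higher and Nr2f2 lower of 5. Among 9 granulosa markers Inha and Cyp19a1 were higher, and among 3 surface epithelium markers Krt8 and Krt18 were lower, with sums of 123 to 179 in RU UF and 218 to 316 in control PoF. No smooth muscle, endothelial, leukocyte, red cell or oocyte marker was called, but several of their sums did not overlap. Smooth muscle markers summed to 691 to 841 in RU UF and 1033 to 1313 in control PoF, endothelial markers to 601 to 836 in RU UF and 933 to 1039.6 in control PoF, and the 2 red cell markers to 162 to 219 in RU UF and 222 to 405 in control PoF. Oocyte markers summed to 23.7 to 39.1 in RU UF and 12.1 to 23.5 in control PoF, while the sums of granulosa and leukocyte markers overlapped. The Gapdh 3′ to 5′ difference ran between 2.86 and 3.26 in RU UF and between 2.07 and 2.30 in control PoF, without overlap. The part of these differences in the members' values was not tested.

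**Figure D3:**
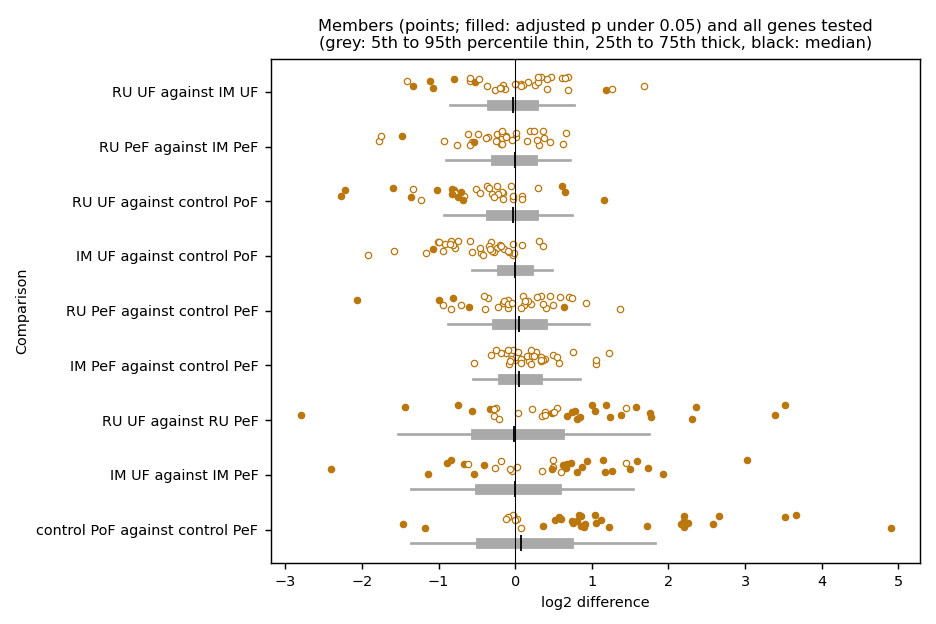
Log2 differences of the 35 tested members (points, filled where limma's adjusted p was under 0.05) in 9 comparisons, above the distribution over all 10392 genes tested (thin bar for the middle 90%, thick bar for the middle 50%, tick for the median). In control PoF against control PeF the members' median was 0.86 and that of all genes 0.08; in RU UF and IM UF against control PoF the members' medians were -0.37 and -0.41.

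At 22:00 of proestrus 5 members were called after RU486. In RU PeF 4 members, Pfkfb3, Pgk1, Pdk4 and Ugp2, were lower than in control PeF and Pfkp was higher, where 4.78% of all genes were lower and 3.79% higher. The groups did not overlap in 7 members above and 7 below (13.6% and 12.4% of all genes), and the median difference was 0.08 over the members and 0.05 over all genes. With median scaling only Pfkp was called among the members, where 147 of all genes were lower and 409 higher. With the signals as deposited no member was called, where 6 of all genes were lower and 10 higher. Pgk1 and Ugp2 then differed by 0.05 and 0.30. Smooth muscle markers summed to between 283 and 345 in RU PeF, against 646 to 825 in control PeF, with 4 of 8 lower. Theca markers summed to 10536 to 12797 in RU PeF and 8216 to 9059 in control PeF. The median log2 difference of the 5 theca markers was -0.24, with Star higher and Nr2f2 lower, so the sum does not stand for most of them. Endothelial markers summed to 808 to 1020 in RU PeF and 1198 to 1347 in control PeF. The sums of the other cell types overlapped. The Gapdh 3′ to 5′ difference ran between 2.65 and 2.94 in RU PeF and between 2.95 and 4.09 in control PeF. Of the other markers, 2 of granulosa cells and 2 of endothelium were lower, and 1 each of theca and leukocytes was higher and 1 lower. The part of these differences in the members' values was not tested.

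Against its controls indomethacin gave 1 call. No member was called in IM PeF against control PeF, where 0% of all genes were called; IM PeF lay above control PeF without overlap in 1 member and below it in none (5.56% and 4.75% of all genes), 3 of 35 members had an unadjusted limma p under 0.05, as had 11.1% of all genes, and with array quality weights limma called 5 members and 12.9% of all probe sets. No cell type marker was called there, but some sums did not overlap. Smooth muscle markers summed to 463 to 560 in IM PeF and 646 to 825 in control PeF. Endothelial markers summed to 890 to 1051 in IM PeF and 1198 to 1347 in control PeF. Surface epithelium markers summed to 23.1 to 57.8 in IM PeF and 67.5 to 83.2 in control PeF. Sums of the other cell types, and the Gapdh 3′ to 5′ difference, overlapped. In IM UF Gbe1 was lower than in control PoF, where 0.0481% of all genes were lower and none was higher. With median scaling or the signals as deposited Gbe1 was not called, where 3 and 4 of all genes were lower and none higher. At an unadjusted p under 0.05, 18 members and 7.48% of all genes passed. IM UF lay below control PoF without overlap in 20 members and above it in none, against 9.23% and 9.29% of all genes, and 32 of the 35 differences were below 0. The median was -0.41 over the members and 0.00 over all genes. Without the third control PeF sample, which enters this fit through the shared spread, 4 members were called lower. The count of all genes called in that fit is not given here, so the 4 cannot be set against it. The median without the second IM UF sample, whose array median was the next to lowest, was -0.28. No marker of any cell type was called between IM UF and control PoF, where few genes were called at all. Endothelial markers summed to 823 to 847 in IM UF and 933 to 1039.6 in control PoF, and surface epithelium markers to 141 to 209 in IM UF and 218 to 316 in control PoF, both without overlap. The sums of the other cell types, and the Gapdh 3′ to 5′ difference, overlapped between these groups. The part of these differences in the members' values was not tested.

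Set against each other at 10:00, the drugs differed in 6 members. Slc2a3, Slc16a1, Pfkp, Pgk1 and Ldhb were lower in RU UF than in IM UF and Pfkfb4 was higher, where 4.38% of all genes were lower and 3.48% higher. With median scaling 3 members were lower and none higher, where 220 of all genes were lower and 118 higher. With the signals as deposited no member was called, where 12 of all genes were lower and 9 higher. After quantile normalization, the calls ended without any 1 of 4 arrays for Slc2a3, 3 for Pfkfb4, 5 for Pgk1 and 4 for Ldhb. At 22:00 Pfkfb3 and Ugp2 were lower in RU PeF than in IM PeF, where 3.85% of all genes were lower and 2.17% higher. With median scaling 1 member was called, where 190 of all genes were lower and 148 higher. With the signals as deposited no member was called, where 23 of all genes were lower and 4 higher. RU UF lay above IM UF without overlap in 10 members and below it in 10 (15.0% and 18.6% of all genes), and RU PeF above IM PeF in 5 and below it in 11 (12.5% and 13.1%). Theca markers (3 higher and 1 lower of 5), the granulosa marker Cyp19a1 (higher), 2 smooth muscle markers (lower) and the leukocyte marker Lyz2 (lower) also differed between RU UF and IM UF, and between RU PeF and IM PeF 2 smooth muscle markers were lower, 1 granulosa and 1 theca marker were higher and 1 of each lower, and Cd14 was higher. Theca markers summed to 11540 to 13151 in RU UF and 3979 to 5579 in IM UF. In the same order smooth muscle markers gave 691 to 841 and 1277 to 1509. Leukocyte markers gave 322 to 505 and 642 to 853, and red cell markers 162 to 219 and 245 to 541. At 22:00 theca markers summed to 10536 to 12797 in RU PeF and 8111 to 9469 in IM PeF (median log2 difference -0.10). Smooth muscle markers gave 283 to 345 and 463 to 560. Other sums overlapped. The part of these differences was not tested. RU UF and IM UF share the control PoF samples as their control, so the 2 drugs' differences from it are not independent of each other.

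Among the carriers of glucose, Slc2a1 (GLUT1), which serves most cell types, measured 382, 497 and 545 in RU UF, 355, 345 and 322 in IM UF, and 767, 558 and 529 in control PoF. Its signals at 22:00 were 804, 766 and 792 in RU PeF, 706, 547 and 589 in IM PeF, and 517, 565 and 821 in control PeF. Slc2a1 was lower at the later time in both drug groups, by 0.74 in RU UF and 0.84 in IM UF, and control PoF overlapped with control PeF (-0.03 ± 0.18, adjusted p = 0.915). Slc2a3 (GLUT3), a carrier of high affinity for glucose, measured 18.2, 10.8 and 11.5 in RU UF, 32.9, 44.4 and 36.1 in IM UF, and 150.0, 48.6 and 56.5 in control PoF. The values at 22:00 were 107, 92.9 and 129.8 in RU PeF, 268, 207 and 169 in IM PeF, and 250.3, 212 and 179.8 in control PeF. The 3 RU UF samples were the lowest of all 18, and no sample of RU UF overlapped with any other group. Slc2a3 was 4.84-fold lower in RU UF than in control PoF (-2.28 ± 0.32, adjusted p = 0.000211) and 2.52-fold lower than in IM UF (-1.33 ± 0.32, adjusted p = 0.0175). In control PoF it was 2.77-fold lower than in control PeF (adjusted p = 0.00165), although with the signals as deposited this difference was -0.01. Slc2a4 (GLUT4), the insulin-dependent carrier of muscle and fat, was not tested; its signal was between 1.40 and 11.96 outside RU PeF and RU UF and between 1.00 and 9.59 within them.

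Both tested carriers of lactate were higher in control PoF than in control PeF. Slc16a1 (MCT1), which moves lactate and pyruvate with a proton in either direction, measured 398, 342 and 351 in RU UF, 767, 798 and 808 in IM UF, and 719, 665 and 850.0 in control PoF. At 22:00 its values were 451, 433 and 487 in RU PeF, 485, 471 and 532 in IM PeF, and 476, 542 and 449.9 in control PeF. It was 1.52-fold higher in control PoF than in control PeF (0.60 ± 0.12, adjusted p = 0.000640) and 1.59-fold higher in IM UF than in IM PeF, and 1.26-fold lower in RU UF than in RU PeF (adjusted p = 0.0346; -0.39 to -0.28 over omissions of 1 array, not called without any 1 of 4). RU UF lay below control PoF (-1.02 ± 0.12, adjusted p = 3.30e-05) and below IM UF (-1.12 ± 0.12, adjusted p = 2.29e-05) in all samples. Slc16a3 (MCT4), the lactate exporter of strongly glycolytic cells, measured 72.6, 207 and 267 in RU UF, 115, 72.6 and 112 in IM UF, and 364, 446 and 333 in control PoF. For 22:00 the signals were 27.0, 24.0 and 41.3 in RU PeF, 19.7, 36.1 and 18.2 in IM PeF, and 17.2, 21.8 and 1.40 in control PeF. The lowest was the third control PeF sample, whose Slc16a3 was not above background. The log2 difference of control PoF from control PeF was 4.90 ± 0.53 (adjusted p = 1.97e-06), and 4.12 without that sample. Both unruptured groups lay below control PoF with no overlap, but neither difference passed (-1.23 ± 0.53, adjusted p = 0.189 in RU UF, -1.92 ± 0.53 (adjusted p = 0.314) in IM UF).

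**Figure D4:**
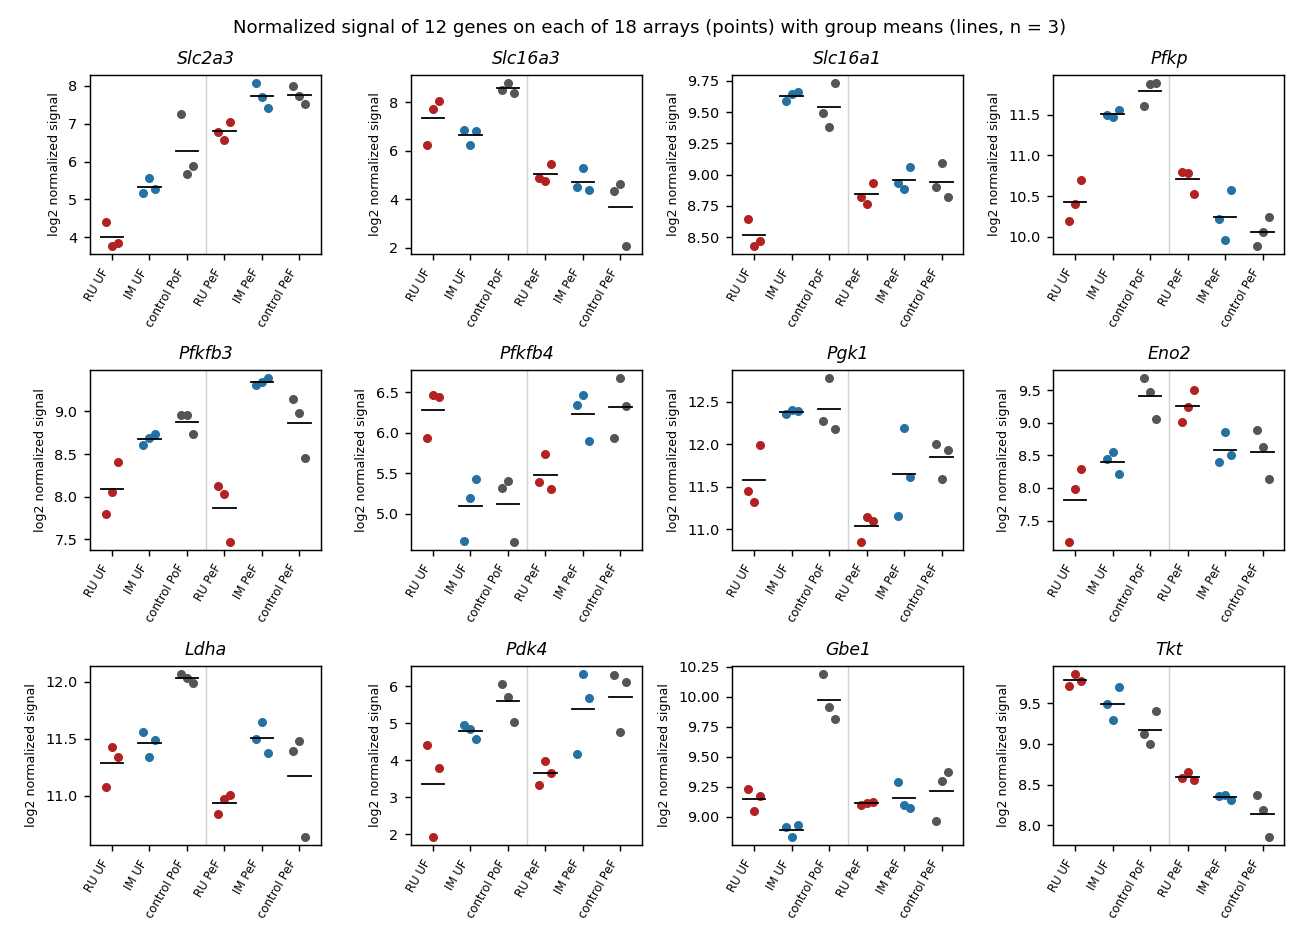
Log2 of the normalized signal plus the pseudocount of 2.79 for 12 members on each of the 18 arrays (points), with the group mean (line, n = 3), for 10:00 of estrus left of the grey line and 22:00 of proestrus right of it. RU UF samples lie below every other sample in Slc2a3 and Slc16a1, below both other groups of 10:00 in Pfkp and Pgk1, and above them in Pfkfb4.

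The first steps act on the 6-carbon sugars. Hexokinase traps glucose in the cell, and its form Hk1 measured 359.9, 407 and 323 in RU UF, 463, 296 and 476 in IM UF, and 386, 534 and 431 in control PoF. On proestrus it measured 87.3, 89.4 and 147 in RU PeF, 101, 113 and 149 in IM PeF, and 96.5, 109 and 71.3 in control PeF. The later groups lay above the earlier ones of the same treatment without overlap, by 4.79-fold in control PoF (2.26 ± 0.23, adjusted p = 1.22e-06), 3.32-fold in IM UF and 3.38-fold in RU UF. A dimmer Hk1 probe set gave 0.60 in control PoF (adjusted p = 0.323), -0.51 in IM UF and 0.45 in RU UF, none of them called. Hk2, the inducible hexokinase, measured 9.29, 17.3 and 13.8 in RU UF, 9.51, 9.08 and 8.92 in IM UF, and 21.9, 19.3 and 18.5 in control PoF. At 22:00 it measured 13.2, 14.9 and 20.9 in RU PeF, 16.9, 19.3 and 22.5 in IM PeF, and 12.4, 29.3 and 26.4 in control PeF. Hk2 was lower in IM UF than in IM PeF (-0.90 ± 0.33, adjusted p = 0.0468), a call that ended without any 1 of 14 of the 18 arrays, with values between -0.98 and -0.80. Gpi, which turns glucose 6-phosphate into fructose 6-phosphate, measured 979.7, 1162 and 1531 in RU UF, 1025, 758 and 938 in IM UF, and 942, 1437 and 1383 in control PoF. It measured 352, 293 and 419.7 in RU PeF, 326, 512 and 379 in IM PeF, and 387, 274 and 178 in control PeF at 22:00. All 3 later groups were above their earlier groups, by 2.20 ± 0.25 in controls, 1.17 ± 0.25 after indomethacin and 1.77 ± 0.25 after RU486.

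Phosphofructokinase sets the pace of glycolysis, and its 3 subunit genes differed. Pfkp, the platelet-type subunit, measured 1166, 1348 and 1663 in RU UF, 2891, 2838 and 3015 in IM UF, and 3108, 3749 and 3797 in control PoF. Its signals at 22:00 were 1779, 1766 and 1474 in RU PeF, 1191, 991 and 1518 in IM PeF, and 944, 1063 and 1215 in control PeF. Control PoF exceeded control PeF 3.31-fold (1.72 ± 0.15, adjusted p = 2.40e-07) and IM UF exceeded IM PeF 2.40-fold, while RU UF overlapped with RU PeF (-0.27 ± 0.15, adjusted p = 0.171). RU UF was 2.56-fold below control PoF (-1.36 ± 0.15, adjusted p = 2.81e-05), and RU PeF 1.56-fold above control PeF (0.64 ± 0.15, adjusted p = 0.0165). Without the first control PeF sample, or without the first or second RU PeF sample, the last call ended, with values between 0.55 and 0.73 over all omissions. Pfkm, the muscle-type subunit, measured 215, 229 and 214 in RU UF, 209.7, 100 and 138 in IM UF, and 168, 185 and 182 in control PoF. The values at 22:00 were 51.4, 40.8 and 30.9 in RU PeF, 42.6, 52.3 and 43.0 in IM PeF, and 48.7, 37.4 and 8.62 in control PeF. The third control PeF sample was the lowest, and the log2 difference of control PoF from control PeF, 2.66 ± 0.39 (adjusted p = 4.69e-05), was 1.999 without it. Pfkm was not called between RU UF and control PoF (0.29 ± 0.39, adjusted p = 0.747), and a second, dimmer Pfkm probe set ran the other way over time, by -1.33 in controls (adjusted p = 0.157), so the 2 probe sets disagree. Pfkl, the liver-type subunit, was higher in control PoF than in control PeF (0.74 ± 0.23, adjusted p = 0.0150; 0.64 to 0.86 over omissions, not called without the first control PoF sample) and in RU UF than in RU PeF (0.74 ± 0.23, adjusted p = 0.0150; 0.48 without the third RU UF sample, not called).

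Aldolase splits the 6-carbon sugar. Aldoa, its main form outside liver and brain, measured 5999.7, 6755 and 6914 in RU UF, 6807, 4939 and 5871 in IM UF, and 6351, 7835 and 8030.3 in control PoF. It measured 3946, 3332 and 4182 in RU PeF, 3515, 4149 and 3678 in IM PeF, and 4036, 3565 and 2679.7 in control PeF at 22:00. Control PoF was 2.18-fold above control PeF (1.12 ± 0.15, adjusted p = 1.42e-05), and neither drug group differed from its control by a call. Aldoc, the brain form, measured 107, 129 and 152 in RU UF, 73.8, 68.0 and 95.8 in IM UF, and 115, 159.9 and 128 in control PoF. At 22:00 its signals were 3.44, 15.1 and 10.6 in RU PeF, 4.10, 6.04 and 13.6 in IM PeF, and 26.6, 2.08 and 5.76 in control PeF. At 22:00 it was above background in 2 RU PeF, 1 IM PeF and 1 control PeF samples only, and in all 9 samples of 10:00. The log2 differences over time were 3.67 ± 0.51 in controls, 3.02 ± 0.51 after indomethacin and 3.52 ± 0.51 after RU486, all called, with the earlier samples below background entered at their measured signals. Without the first control PeF sample no control PeF sample measured Aldoc, and control PoF was at least 7.98-fold higher. Tpi1, which interconverts both products of the split sugar, measured 3114, 3438 and 3937 in RU UF, 4319.9, 4363 and 4843 in IM UF, and 5503, 5788 and 5364 in control PoF. Tpi1 measured 1095, 1367 and 1605 in RU PeF, 1136, 2828 and 1249 in IM PeF, and 1749.6, 1295 and 825 in control PeF at 22:00, and control PoF was 4.50-fold above control PeF (2.17 ± 0.27, adjusted p = 9.36e-06). RU UF lay below control PoF without overlap but did not pass (-0.67 ± 0.27, adjusted p = 0.156).

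The 2 tested enzymes that make and remove fructose 2,6-bisphosphate, the activator of phosphofructokinase, were both called in RU486-treated follicles. Pfkfb3, whose product strongly favours making the activator, measured 220.3, 263 and 337 in RU UF, 386, 409.6 and 424 in IM UF, and 494, 494 and 423 in control PoF. For 22:00 the signals were 275, 258 and 174 in RU PeF, 633, 647 and 668 in IM PeF, and 564, 503 and 348 in control PeF. RU486-treated follicles were lower at both hours, 1.99-fold in RU PeF against control PeF (-0.99 ± 0.19, adjusted p = 0.00424) and 1.73-fold in RU UF against control PoF (-0.79 ± 0.19, adjusted p = 0.0140). The later call ended without the first or second sample of RU UF or of control PoF, with values between -0.95 and -0.65 over omissions, and the earlier one under no omission. With median scaling or the signals as deposited neither was called. The earlier one was also not called in a fit on only the groups compared. Its values were between -1.19 and -0.06 over the alternatives other than omission of 1 array. The IM PeF samples were the highest of all 18, and RU PeF was 2.78-fold below them (-1.48 ± 0.19, adjusted p = 0.000119). Pfkfb4, a second such enzyme, measured 58.2, 85.8 and 84.0 in RU UF, 22.6, 33.8 and 40.2 in IM UF, and 37.1, 39.7 and 22.4 in control PoF. Its 22:00 values were 39.0, 50.4 and 36.8 in RU PeF, 78.3, 85.8 and 56.7 in IM PeF, and 58.6, 99.1 and 77.4 in control PeF. Control PoF was 2.27-fold below control PeF (-1.18 ± 0.28, adjusted p = 0.00300; 0.14 with the signals as deposited, not called) and IM UF 2.20-fold below IM PeF. RU UF was instead 1.75-fold above RU PeF (adjusted p = 0.0315; 0.71 to 0.98 over omissions, not called without any 1 of 4 arrays), and 2.22-fold above control PoF (1.15 ± 0.28, adjusted p = 0.0158). The last call ended without the third control PoF sample or the second or the third RU UF sample, with values between 0.92 and 1.33 over omissions. Pfkfb1 and Pfkfb2 were not tested.

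The triose steps yield the energy of glycolysis. Gapdh, the glyceraldehyde phosphate dehydrogenase, was 2.09-fold higher in control PoF than in control PeF by its 3′ probe set (1.06 ± 0.12, adjusted p = 2.53e-06), and by 1.88 and 2.38 (log2) in its middle and 5′ probe sets. Gapdh by its 3′ probe set was not called in any comparison of a drug with its control; its 5′ and middle probe sets were higher in RU PeF than in control PeF, by 1.37 and 1.04 (adjusted p = 0.0191 and 0.00684). Pgk1, the first enzyme of the path to make ATP, measured 2786, 2547 and 4072 in RU UF, 5225, 5399 and 5364 in IM UF, and 4964, 7013 and 4641 in control PoF. At 22:00 Pgk1 measured 1848, 2268 and 2194 in RU PeF, 2272, 4689 and 3144 in IM PeF, and 4113, 3093 and 3921 in control PeF. It was 1.77-fold lower in RU UF than in control PoF (-0.83 ± 0.22, adjusted p = 0.0243; -1.03 to -0.65 over omissions, not called without the second control PoF or the first or second RU UF sample), and a second probe set gave -0.82 (adjusted p = 0.0349). By the second probe set Pgk1 was not called in RU PeF against control PeF (-0.61, adjusted p = 0.115) or in RU UF against IM UF (-0.61, adjusted p = 0.137). By its main probe set it was 1.76-fold lower in RU PeF than in control PeF (-0.81 ± 0.22, adjusted p = 0.0311), a call that ended without any 1 of 5 arrays, with values between -0.94 and -0.72. The rise in control PoF over control PeF (0.56 ± 0.22, adjusted p = 0.0481) ended as a call without any 1 of 12 arrays, with values between 0.38 and 0.69. By the second probe set this rise was 1.06 (adjusted p = 0.00159). Over time that probe set was called after RU486 (0.85) and not after indomethacin (0.41). The main one was called after indomethacin (0.72) and not after RU486 (0.55). The second was also lower in RU PeF than in IM PeF (-1.05, adjusted p = 0.0111), where the main one was not called (-0.62). Pgam1, the phosphoglycerate mutase, was higher at the later hour in all 3 treatments, by 0.90 ± 0.11 in controls, 0.80 ± 0.11 after indomethacin and 0.84 ± 0.11 after RU486.

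The enolases make phosphoenolpyruvate. Eno1, the form of most tissues, measured 868, 918 and 1082 in RU UF, 1177, 640.2 and 1129 in IM UF, and 1450.3, 1884 and 1623 in control PoF. At 22:00 its values were 666, 659 and 688 in RU PeF, 537, 494 and 522 in IM PeF, and 462, 576 and 165 in control PeF. Control PoF was 4.62-fold above control PeF (2.21 ± 0.31, adjusted p = 3.06e-05), with the third control PeF sample lowest; the difference was 1.67 without it. RU UF and control PoF did not overlap but the difference did not pass (-0.79 ± 0.31, adjusted p = 0.145). Eno2, the neuronal form, measured 142, 251 and 309 in RU UF, 346, 371 and 294 in IM UF, and 819.6, 709 and 532 in control PoF. It measured 515, 601 and 721 in RU PeF, 335, 459.9 and 359 in IM PeF, and 471, 392 and 278 in control PeF at 22:00. RU UF held the lowest sample of all, lay below control PoF 3.01-fold (-1.59 ± 0.25, adjusted p = 0.000523) and was 2.70-fold below RU PeF (adjusted p = 0.000204). In controls the later group was above the earlier one (0.86 ± 0.25, adjusted p = 0.0113; 0.65 to 1.03 over omissions, not called without the third control PeF or the first control PoF sample).

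Lactate dehydrogenase takes pyruvate to lactate and back. Ldha, the muscle-type subunit, measured 2157, 2752 and 2595 in RU UF, 3015, 2595 and 2872 in IM UF, and 4297, 4196 and 4072 in control PoF. On proestrus it measured 1831, 2005 and 2055 in RU PeF, 2891, 3195 and 2655 in IM PeF, and 2684, 2857 and 1587 in control PeF. All 3 control PoF samples were above the other 15, 1.82-fold above control PeF (0.86 ± 0.16, adjusted p = 0.000448) and RU UF 1.68-fold below control PoF (-0.75 ± 0.16, adjusted p = 0.00710). IM UF lay below control PoF without overlap and was not called (-0.57 ± 0.16, adjusted p = 0.336). Ldhb, the heart-type subunit, measured 655, 579 and 491 in RU UF, 822, 759 and 888 in IM UF, and 916, 991 and 895 in control PoF. Its 22:00 values were 924, 801 and 819.6 in RU PeF, 1295, 1061 and 936 in IM PeF, and 817, 929.7 and 1082 in control PeF. It was 1.63-fold lower in RU UF than in control PoF (-0.71 ± 0.14, adjusted p = 0.00340), 1.48-fold lower than in RU PeF and 1.44-fold lower than in IM UF (adjusted p = 0.0289). The last call ended without any 1 of 4 arrays, with values between -0.62 and -0.41. Control PoF and control PeF differed by -0.01 ± 0.14 (adjusted p = 0.977).

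The pyruvate dehydrogenase kinases switch the complex off and so spare pyruvate for other uses. Pdk4, the kinase raised in fasting, measured 18.5, 1.00 and 11.01 in RU UF, 28.1, 25.9 and 21.0 in IM UF, and 63.9, 49.4 and 30.1 in control PoF. At 22:00 it measured 7.24, 13.0 and 9.75 in RU PeF, 15.4, 78.2 and 48.3 in IM PeF, and 75.7, 24.3 and 66.1 in control PeF. RU UF and RU PeF lay below their controls without overlap, 4.69-fold (-2.23 ± 0.59, adjusted p = 0.0247) and 4.19-fold (-2.07 ± 0.59, adjusted p = 0.0409). The second RU UF sample stood at the floor of 1, and the difference of RU UF from control PoF was -1.50 without it and not called; without the first or the second control PoF sample it was also not called, with values down to -2.76. The call for RU PeF ended without any 1 of 9 arrays, with values between -2.54 and -1.78. Pdk1 measured 119, 111 and 98.9 in RU UF, 93.8, 89.8 and 74.3 in IM UF, and 146, 119.5 and 125 in control PoF. It measured 65.1, 55.8 and 41.1 in RU PeF, 40.6, 97.0 and 54.5 in IM PeF, and 96.2, 54.3 and 70.2 in control PeF at 22:00. Pdk1 was higher in control PoF than in control PeF (0.83 ± 0.27, adjusted p = 0.0213; 0.64 to 1.04 over omissions, not called without the second control PeF or the first control PoF sample), and a second, dimmer probe set gave 2.63 (adjusted p = 4.76e-05). Pdk2 measured 38.3, 56.8 and 35.4 in RU UF, 36.4, 1.06 and 16.1 in IM UF, and 35.6, 31.7 and 55.3 in control PoF. The values at 22:00 were 1.39, 1.00 and 2.36 in RU PeF, 12.3, 28.5 and 4.12 in IM PeF, and 7.60, 5.48 and 1.40 in control PeF, and no sample of RU PeF or control PeF was above background. Control PoF was therefore at least 2.86-fold above control PeF, and RU UF at least 4.45-fold above RU PeF. Here a dim array counts at the lowest signal above its background. These bounds were not tested. limma tested the log2 differences with dim samples at their measured signals, 2.58 and 3.39 (adjusted p = 0.00530 and 0.000610). The second IM UF sample was near the floor. Without the 3 arrays of lowest median signal IM UF exceeded IM PeF by 1.45 (limma, adjusted p = 0.0224), against -0.06 with them. Those arrays were of the third control PeF, the second IM UF and the second IM PeF samples. The last of these had the highest Pdk2 signal of IM PeF (28.5), so samples at both ends were left out.

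Pdha1, the catalytic subunit of the complex, measured 383, 433 and 424 in RU UF, 489, 395 and 634 in IM UF, and 781, 606 and 617 in control PoF. At 22:00 its signals were 507, 495 and 442 in RU PeF, 821, 651 and 714 in IM PeF, and 652, 750.4 and 512 in control PeF. It was 1.60-fold lower in RU UF than in control PoF (-0.68 ± 0.17, adjusted p = 0.0175; -0.75 to -0.56 over omissions, not called without the first control PoF or the first RU UF sample). Over time it was lower in IM UF than in IM PeF (-0.54 ± 0.17, adjusted p = 0.0197; -0.72 to -0.38 over omissions, not called without any 1 of 3 arrays). Control PoF and control PeF gave 0.07 by its main probe set, not called, while a second, dimmer probe set was lower in control PoF (-1.50, adjusted p = 0.00255), so the 2 probe sets disagree. The second Pdha1 probe set was not called in RU UF against control PoF (-0.60, adjusted p = 0.360), and was lower in IM UF than in IM PeF (-2.29, adjusted p = 7.54e-05) and in RU UF than in RU PeF (-2.06, adjusted p = 0.000158), where the main one gave -0.22, not called.

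All 6 glycogen genes were higher in control PoF than in control PeF. Gbe1, the branching enzyme, measured 598, 528 and 576 in RU UF, 482, 453 and 486 in IM UF, and 1166, 959.7 and 899 in control PoF. For 22:00 the signals were 547, 551 and 556 in RU PeF, 624, 546 and 536 in IM PeF, and 498, 627 and 662 in control PeF. The 3 control PoF samples were above the other 15. RU UF was 1.76-fold (-0.82 ± 0.13, adjusted p = 0.000401) and IM UF 2.11-fold (-1.08 ± 0.13, adjusted p = 0.00173) below control PoF, which was 1.69-fold above control PeF (0.76 ± 0.13, adjusted p = 0.000136). Neither drug group changed over time in Gbe1 by a call (0.04 after RU486, -0.26 after indomethacin). Gys1, the glycogen synthase of muscle and most other tissues, measured 75.3, 116 and 112 in RU UF, 163, 112 and 146 in IM UF, and 306, 245 and 216 in control PoF. Its 22:00 values were 17.1, 50.6 and 46.0 in RU PeF, 29.9, 86.7 and 45.4 in IM PeF, and 57.5, 41.0 and 1.40 in control PeF. The third control PeF sample was near the floor, and the rise in control PoF, 3.52 ± 0.68, was 2.32 without it and 4.25 without the first control PeF sample, called in both.

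The remaining glycogen genes make, break and shuttle its sugar units. Pygl, the liver-type phosphorylase, measured 104, 43.3 and 105 in RU UF, 33.1, 26.1 and 33.8 in IM UF, and 87.5, 42.4 and 103 in control PoF. On proestrus it measured 19.7, 45.7 and 34.3 in RU PeF, 23.0, 12.2 and 25.9 in IM PeF, and 19.5, 29.3 and 45.2 in control PeF. It was higher in control PoF than in control PeF (1.22 ± 0.42, adjusted p = 0.0264; 0.95 to 1.59 over omissions, not called without any 1 of 4 arrays), although 1 control PoF sample lay within the control PeF range. RU UF gave 0.09 against control PoF, not called, and IM UF lay below it without overlap, not called (-1.17 ± 0.42, adjusted p = 0.514). Pgm1, which interconverts glucose 1-phosphate and glucose 6-phosphate, was 4.61-fold higher in control PoF than in control PeF (2.20 ± 0.26, adjusted p = 4.25e-06), and Pygb, the brain-type phosphorylase, 1.76-fold (adjusted p = 0.00174). Ugp2, which makes UDP-glucose, measured 763, 727 and 714 in RU UF, 815, 804 and 921 in IM UF, and 878, 882 and 925 in control PoF. It measured 437, 476 and 458 in RU PeF, 627, 677 and 689 in IM PeF, and 795, 819.6 and 521 in control PeF at 22:00. All 3 RU PeF samples were below the other 15, 1.52-fold below control PeF (-0.61 ± 0.14, adjusted p = 0.0116; 0.30 with the signals as deposited) and 1.45-fold below IM PeF (adjusted p = 0.0269; -0.57 to -0.50 over omissions, not called without any 1 of 5 arrays). Its rise in control PoF (0.36 ± 0.14, adjusted p = 0.0462) ended as a call without any 1 of 14 arrays, with values between 0.15 and 0.47.

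Of the 3 pentose phosphate genes, Pgd and Tkt were higher in RU UF than in control PoF. Pgd, which makes NADPH from 6-phosphogluconate, measured 595, 581 and 517 in RU UF, 514, 443 and 422 in IM UF, and 289, 443 and 354 in control PoF. At 22:00 it measured 241, 253 and 328 in RU PeF, 256, 351 and 284 in IM PeF, and 265, 265 and 219 in control PeF. RU UF was 1.57-fold above control PoF (0.66 ± 0.17, adjusted p = 0.0217), without overlap; the values were between 0.50 and 0.81 over omissions, and the call ended without the first or the third control PoF sample, or the first or second RU UF sample. Tkt, the transketolase, measured 837, 926 and 872 in RU UF, 716, 622 and 826 in IM UF, and 554, 509.6 and 674 in control PoF. Its 22:00 values were 379, 400.0 and 374 in RU PeF, 326, 328 and 314 in IM PeF, and 329.6, 289 and 229 in control PeF. RU UF was 1.52-fold above control PoF (0.61 ± 0.14, adjusted p = 0.0119; 0.52 to 0.72 over omissions, not called without the first or second control PoF or the second RU UF sample), and each later group exceeded its earlier group, by 1.04 ± 0.14 in controls, 1.14 ± 0.14 after indomethacin and 1.19 ± 0.14 after RU486. Taldo1, the transaldolase, was higher in control PoF than in control PeF (0.91 ± 0.15, adjusted p = 0.000182) and differed by -0.02 between RU UF and control PoF.

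The test of whether RU486 changed the difference between the hours called 6 members. Pfkfb4 differed by 1.99 ± 0.40 (adjusted p = 0.00898), higher over time in RU486-treated follicles and lower in controls. Pfkp (-1.999 ± 0.22, adjusted p = 0.000219), Eno2 (-2.29 ± 0.35, adjusted p = 0.00142) and Slc16a1 (-0.93 ± 0.17, adjusted p = 0.00411) rose in control follicles and did not in RU486-treated ones, where Eno2 and Slc16a1 fell. These 4 were called in every fit that left out 1 of the 18 arrays. Eno1 (-1.71 ± 0.44, adjusted p = 0.0372) and Gbe1 (-0.72 ± 0.18, adjusted p = 0.0290) were also called; without any 1 of 10 arrays for Eno1 (-2.06 to -1.16) and 8 for Gbe1 (-0.80 to -0.60) they were not. With median scaling no member was higher and 3 were lower, where 34 of all genes were higher and 179 lower. With the signals as deposited no member was higher and 1 was lower, where none of all genes was higher and 42 were lower. All genes then shifted by -1.54. After quantile normalization Pfkfb3 and Pdk4, called lower after RU486 at both hours, gave 0.20 ± 0.27 and -0.16 ± 0.84, not called. Gapdh by its 3′ probe set was not called (-0.59, adjusted p = 0.0575). Its 5′ and middle probe sets were lower in this test (-2.27 and -1.49, adjusted p = 0.0115 and 0.00976). The second Pdk1 probe set was lower as well (-2.21, adjusted p = 0.0305), where the main one gave 0.17, not called.

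**Figure D5:**
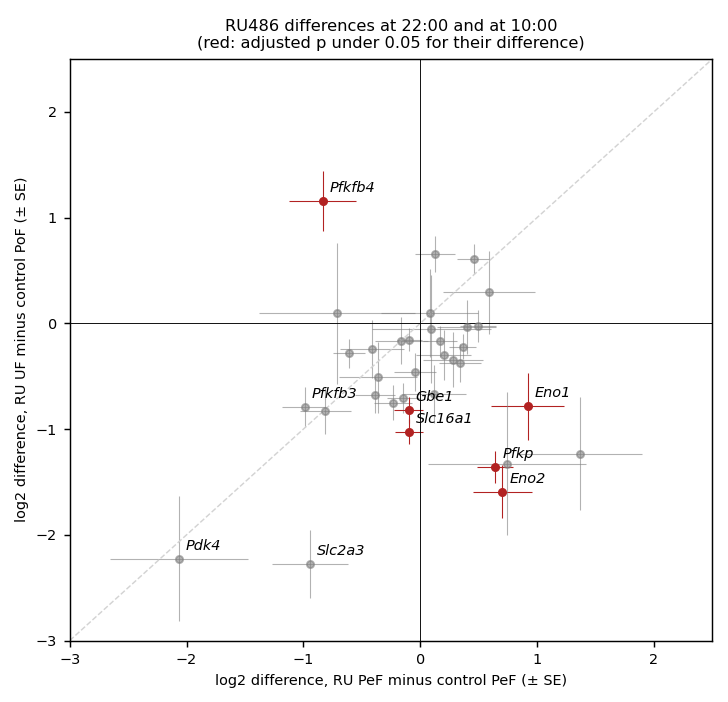
Log2 difference of RU UF from control PoF (vertical axis) against that of RU PeF from control PeF (horizontal axis) for the 35 tested members, with SE bars from limma, the dashed line of equal differences, and in red the 6 members whose differences at the 2 hours differed at an adjusted p under 0.05. Pfkp, Eno1 and Eno2 lie to the right of 0 and below it, Pfkfb4 to the left and above, and Pdk4 and Pfkfb3 near the line.

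Of 63 other listed genes of glucose metabolism, 48 were on the array with a probe set of 1 symbol and 35 were tested, with 10 higher and 5 lower in control PoF than in control PeF and a median of 0.13. All genes had 24.4% higher and 19.7% lower, with a median of 0.08, so the counts of this list lie near those of all genes. Those higher included Mpc1, a subunit of the mitochondrial pyruvate carrier (1.55, adjusted p = 6.39e-06), Pgls of the pentose phosphate pathway (1.28, adjusted p = 1.20e-05) and Adpgk, an ADP-dependent glucokinase (0.98, adjusted p = 0.00014), and these 3 were also higher over time in both drug groups. Those lower were Slc2a8, Slc16a7, Pgm3, Gsk3b, a kinase that inhibits glycogen synthase (-1.03, adjusted p = 0.0113), and Pdp1, the phosphatase that switches pyruvate dehydrogenase back on (-1.73, adjusted p = 0.000937). In RU UF Pdp2, a second such phosphatase (1.56, adjusted p = 0.000604), and Phka1, a subunit of phosphorylase kinase (0.81, adjusted p = 0.0125), were higher than in control PoF, and Pdk3 and H6pd were lower (-0.60 and -1.13). Phka1 was also higher in RU PeF than in control PeF (1.21, adjusted p = 0.00093), with Adpgk, Pdp2, Mpc2, G6pc3 and Rpia. No listed gene was called between IM UF and control PoF or between IM PeF and control PeF.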

How the data were processed

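Follicles of 6 groups of 3 samples were each measured on 1 array. The authors deposited 1 intensity for each of 31099 probe sets, made with MAS5 per the submitters' processing notes, whose version and scaling target the sources used here do not give. Control probe sets (51) were left out, apart from 6 for Gapdh and Hk1. The platform annotation gave 20832 probe sets 1 symbol, 436 several and 9831 none.

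The deposited intensity was quantile normalized, 2.79 (the 20th percentile) was added, and log2 was taken. A probe set was tested where it exceeded the median of its own array on at least 3 of 18 arrays (18158 probe sets). limma 3.58.1 in R 4.3.3 was fitted over all 6 groups (12 residual degrees of freedom, median prior 5.76), with Benjamini-Hochberg adjustment over all probe sets in each of 11 comparisons and a threshold of 0.05. Above background means above the highest of 27 unspiked control probe sets of that array. A permutation test of 3 against 3 samples cannot go below p = 0.1. The number of arrays limits the precision. Each script's test was tested on simulated data.

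The members and lists were chosen with earlier results of these data known. Values per sample are given for a fixed part of the members and for up to 6 of the largest called rises and falls in each comparison. Alternatives were other scalings, pseudocounts and filters, array weights, second probe sets, fits on only the groups compared, the replicate number as a block, and omission of single arrays or of the 3 with the lowest median. Replicate numbers were checked for pairing: in no comparison were all correlations of same-numbered deviations over 0.1. Figures were drawn with Python 3.11.15 and matplotlib 3.10.9.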

Additional observations from a re-analysis of the deposited data

Results flagged for a closer look

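The RU486 difference at 10:00 of estrus departed from that at 22:00 of proestrus in 6 members, by a limma test of the difference between the 2 hours. Pfkp (-1.999), Eno2 (-2.29), Slc16a1 (-0.93), Eno1 (-1.71) and Gbe1 (-0.72) stood lower against their control at the later hour than at the earlier one on the log2 scale, and Pfkfb4 (1.99) stood higher. The adjusted p was 0.000219 for Pfkp, 0.00142 for Eno2, 0.00411 for Slc16a1, 0.0372 for Eno1, 0.0290 for Gbe1 and 0.00898 for Pfkfb4. Groups of 3 samples are too small to test single samples for standing apart.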

How the results depend on the processing

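Counts are of members called. For median scaling and the signals as deposited, counts of all genes stand in the Results with the comparisons named under these settings. Apart from array weights, the other settings are given without a share of all genes. A changed count there can reflect a change over all genes and is not a result about the members. The signals as deposited gave 0 in place of 5 (RU PeF against control PeF), 0 in place of 1 (IM UF against control PoF), 2 in place of 14 (RU UF against control PoF), 2 in place of 24 (IM UF against IM PeF), 5 in place of 23 (RU UF against RU PeF), 0 in place of 2 (RU PeF against IM PeF), 0 in place of 6 (RU UF against IM UF) and 1 in place of 6 (RU486 effect on the time difference). Median scaling gave 1, 0, 7, 1, 3 and 3 for RU PeF against control PeF, IM UF and RU UF against control PoF, RU PeF against IM PeF, RU UF against IM UF and the RU486 effect on time. Array weights gave 5 for IM PeF against control PeF (12.9% of all probe sets) and 12 for RU PeF against control PeF (19.2%). They gave 5 for IM UF against control PoF (0.92%) and 12 for RU PeF against IM PeF (21.3%). For the effects of indomethacin and RU486 on time they gave 5 and 11 (3.03% and 13.5%). Only the groups compared gave 1, 2 and 4 for RU PeF against control PeF, IM UF against control PoF and RU PeF against IM PeF; the last was also 4 with the larger pseudocount, and without the 3 dimmest arrays, which gave 11 for the RU486 effect on time. Leaving out 1 array gave 23 to 29 for control PoF against control PeF, 2 to 8 for RU PeF and 0 to 0 for IM PeF against control PeF, 1 to 4 for IM UF and 8 to 17 for RU UF against control PoF, 18 to 26 for IM UF against IM PeF, 19 to 29 for RU UF against RU PeF, 1 to 4 for RU PeF against IM PeF, 3 to 8 for RU UF against IM UF, and 0 to 0 and 4 to 8 for the effects of indomethacin and RU486 on time. Without the third control PeF sample the RU UF against control PoF count was 17, that of IM UF against control PoF 4 and that of RU UF against RU PeF 29. With the replicate number as a block, 28 were called in control PoF against control PeF, 14 in RU UF against control PoF and 5 in the RU486 effect on time; the samples share only a number. Signs turned with the signals as deposited in Pfkfb4 (0.14, control PoF against control PeF), Pgk1 and Ugp2 (0.052 and 0.30, RU PeF against control PeF) and Pgd and Tkt (-0.093 and -0.13, RU UF against control PoF). With a second probe set they turned in Pfkm (-1.33 in controls, -0.70 in IM and -0.14 in RU follicles over time), Pdha1 (-1.50, controls), Hk1 (-0.51, IM UF against IM PeF) and Pdk1 (-2.21, RU486 effect on time). They turned with weights in Aldoc (1.33, IM PeF against control PeF) and Pdk2 (1.39, IM UF against IM PeF), and without the 3 dimmest arrays in Pdk2 (1.45). The cause was not tested. Signal over background limits Aldoc, Pdk2, Pdk4, Gys1, Slc16a3 and Pfkm at 22:00. At 10:00 it limits Pdk2 and Hk2 in IM UF and Pdk4 in RU UF.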
